A study of Homo sapiens with 6 samples.

Results

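The BCL2 family decides whether the mitochondrial outer membrane stays intact during stress, and 10 of its genes were followed here out of 17918 genes in the table, found by their symbols. They were the survival members BCL2, MCL1 and BCL2L1, the effectors BAX and BAK1, and the BH3-only members BCL2L11, BID, BAD, PMAIP1 and BBC3. Effectors form pores in the outer membrane that release cytochrome c, survival members bind and hold effectors and BH3-only proteins, and BH3-only proteins relay damage or stress signals by engaging the other 2 classes. Plasma cells and myeloma cells are known to lean on survival members, above all on MCL1, and drugs that occupy the BH3-binding groove of BCL2 or MCL1 have been tried in myeloma.

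RNA was sequenced from 6 libraries of KMS11, an established human myeloma line. Of these, 3 expressed an shRNA (short hairpin RNA) that targets CRIP1, a small LIM domain protein, and 3 a scrambled hairpin, with the genotype given as CRIP1 knockdown and WT. All 6 were grown without further treatment, and both groups thus expressed a hairpin. The labels name neither the hairpin sequence nor whether several hairpins, a pool or single clones were used, and do not say that replicates came from separate cultures, and p-values then reflect only how these libraries vary, which may be technical variation.

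Libraries held 16971454 to 18005318 estimated counts. CRIP1 had 36521 estimated counts summed over the scramble libraries and 1527 over the knockdown libraries (edgeR log2 fold change -4.71, SE 0.06, adjusted p = 6.15e-22). Of 12612 genes tested with edgeR's quasi-likelihood test, 9783 (77.6%) passed an adjusted p of 0.05, with 39.4% higher and 38.1% lower in the knockdown, so a passed test was the usual outcome for a gene in this comparison. The split was 4974 higher and 4809 lower, and 5531 higher and 3482 lower with limma on log2(TPM + 1). Plasma cell markers, which are not specific to KMS11, were detected in both groups, but their summed level moved. The 13 listed summed to 8780 to 9230 TPM in scramble and 4010 to 4270 TPM in knockdown (TPM is the transcript abundance corrected for length, with an equal total in every library). JCHAIN, the joining chain of secreted antibodies, made up most of that sum, at 6443 against 1789 TPM, and the other 12 markers summed to 2576 to 2620 TPM in scramble and 2288 to 2368 TPM in knockdown. Of 11 tested, 8 fell and IRF4, CD38 and TNFRSF17 rose. SLAMF7 and CD27, in that list, were near 0 in both groups, with 2 and 8 counts in scramble and 9 and 8 in knockdown. The 20 erythroid markers summed to 4.75 to 5.95 TPM in scramble, where 14 of them had 0 counts, and to 772 to 778 TPM in knockdown, where none was at 0. The 10 epithelial markers summed to 23.2 to 27 against 142 to 151 TPM, with KRT19 and CLDN7 at 0 in scramble. The 7 myeloid markers summed to 3.56 to 3.89 against 9.07 to 10.9 TPM, the 8 T and NK cell markers to 0.51 to 0.79 against 1.70 to 2.40 TPM with NKG7 at 0 in both groups, and the 7 fibroblast and endothelial markers to 8.38 to 9.24 against 6.15 to 6.92 TPM with DCN at 0 in both and COL1A2 at 0 in scramble. Whether the knockdown libraries hold RNA of other cells or another cell line is not settled by the labels and was not tested, so each fold below compares the libraries as labelled, not necessarily the same cells. The part of these markers in the changes below was not tested either, and in bulk RNA fewer cells of a type and less RNA per cell cannot be told apart.

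Of the 10 members, 5 rose and 4 fell in the knockdown, and BCL2L1 did not pass the test. A share of 90.0% called stands against 77.6% of all genes, and the median size of change, 0.36 on the log2 scale regardless of sign, stands against 0.41 for all genes tested. The members' median log2 fold change was 0.08, against 0.01 for all genes. By class, 2 of 3 survival members rose and 0 fell, 2 of 5 BH3-only members rose and 3 fell, and 1 of 2 effectors rose while the other fell. All 10 passed the filter on low counts. In TPM the groups did not overlap for 8 members, against 78.5% of all genes tested, and the 2 that overlapped were BAD and PMAIP1. For 1 gene's TPM in 3 against 3 libraries, the two-sided exact permutation test cannot go below p = 0.1, the value it took for each of those 8 (0.6 for BAD and 0.3 for PMAIP1).

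**Figure D1:**
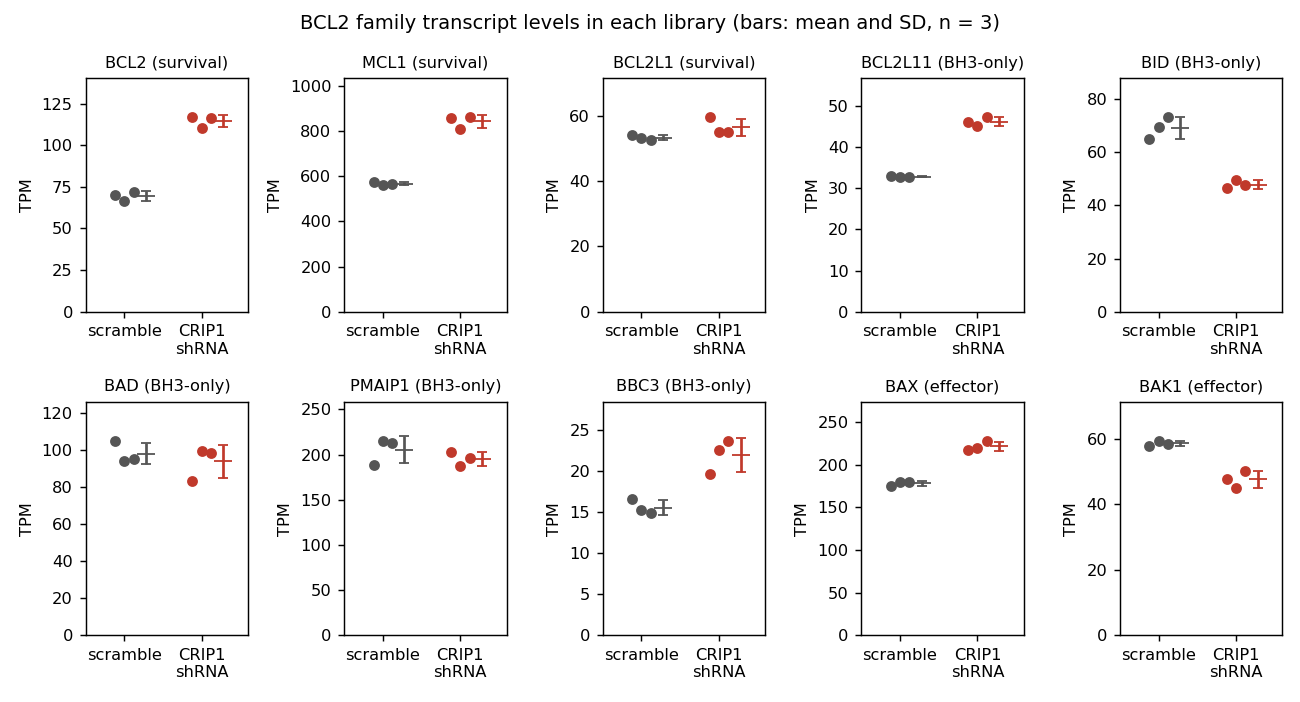
Each panel shows 1 member, with TPM on the vertical axis from 0, a point for each library and a bar for the mean and SD of 3 libraries; grey is scramble and red is CRIP1 shRNA. BCL2, MCL1, BCL2L11, BBC3 and BAX lie higher in every knockdown library, BID and BAK1 lie lower, BCL2L1 differs by little, and the points of BAD and PMAIP1 overlap.

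The survival members started from very different levels. MCL1, a short-lived protein that holds BIM, NOXA and BAK in check, was the most abundant of the 10, at 572, 560 and 567 TPM in scramble replicates 1 to 3 and 860, 809 and 861 TPM in the knockdown replicates. Its gene lies on chromosome 1 from 150574551 to 150579738 (GRCh38, GENCODE 29). Every knockdown library was above every scramble library in TPM. The edgeR fit, which uses TMM-scaled counts, gave a rise of 1.36-fold (log2 fold change 0.44, SE 0.03, adjusted p = 1.2e-10). Mean TPM rose by more, from 566.6 to 843.0. Unless another method is named, fold changes of the members below are from this fit and differ from ratios of their TPM values. By mean TPM, MCL1 ranked 258 of all genes in scramble and 177 in knockdown.

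BCL2, the founding member and the target of venetoclax, lies on chromosome 18 from 63123346 to 63320128. It was at 70.3, 66.2 and 72.0 TPM in scramble and at 117, 110 and 116 TPM in knockdown. This was the largest called rise among the 10, 1.55-fold (log2 fold change 0.63, SE 0.04, adjusted p = 1.68e-12, edgeR), again with no overlap.

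BCL2L1, which encodes BCL-XL (chromosome 20, 31664452 to 31723989), was at 54.2, 53.2 and 52.6 TPM in scramble and 59.5, 55.2 and 54.9 TPM in knockdown. In TPM the knockdown libraries were all slightly higher, whereas the edgeR fit, which scales libraries by the bulk of genes, gave -0.07 (SE 0.05, adjusted p = 0.186), or 0.954-fold. It stayed below 0 when only the scaling of the counts was changed (-0.02 with upper quartiles), and was 0.08 on log2(TPM + 1) and 0.04 on log2(FPKM + 1) with limma, which differ in values, filter and test (adjusted p = 0.107 and 0.47). The direction is thus not settled, and the median of all genes was 0.12 on log2(TPM + 1). The antisense transcript ABALON covers 1424 exon bases of BCL2L1, and no strand setting was stated for the counting. The counts are per gene, so the long and short splice forms of BCL2L1 and MCL1, which act in opposite directions, and the forms of BIM were not separated.

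The order of survival members did not change, with MCL1 above BCL2 above BCL2L1 in each of the 6 libraries, but the gap between BCL2 and BCL2L1 widened. The TPM ratio of BCL2L1 to BCL2 was 0.772, 0.803 and 0.731 in scramble and 0.510, 0.5 and 0.472 in knockdown. BCL2L1 to MCL1 went from 0.0942 ± 0.00118 to 0.0671 ± 0.00288 (SD, n = 3). MCL1 held 82.2% ± 0.223 of the summed survival TPM in scramble and 83.1% ± 0.24 in knockdown (SD, n = 3). These ratios are taken within a library and do not depend on the scaling between libraries.

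Among BH3-only members, the rises were in BCL2L11 and BBC3. BCL2L11 encodes BIM, which binds all survival members and can activate effectors directly, and lies on chromosome 2 from 111119378 to 111168447. It was at 33.0, 32.8 and 32.8 TPM in scramble and 46.1, 45.2 and 47.3 TPM in knockdown, a clean separation with little spread within groups. The change was 1.31-fold (log2 fold change 0.39, SE 0.04, adjusted p = 1.99e-08, edgeR). The noncoding host gene MIR4435-2HG on the other strand shares 727 exon bases with it.

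BBC3 encodes PUMA, a strong binder of survival members that FOXO factors are known to induce (chromosome 19, 47220822 to 47232766). It was the least abundant member, at 16.6, 15.3 and 14.9 TPM in scramble and 19.7, 22.6 and 23.7 TPM in knockdown. The groups did not overlap, although knockdown replicate 1 lay closer to scramble than the other 2, and the rise was 1.25-fold (log2 fold change 0.33, SE 0.09, adjusted p = 0.00224, edgeR). Tested against a 1.2-fold change it did not pass (adjusted p = 0.158).

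The 250 bases before the RefSeq start of BCL2L11 and BBC3 are shown. These windows were picked because both genes rose and both hold matches to the motifs given after the sequences. They are from RefSeq on GRCh38.p14, at chr2:111120664-111120913 (plus strand) and chr19:47232668-47232917 (minus strand). Capitals mark the matches, 5′ to 3′ on the gene's strand. The RefSeq starts differ from the outermost GENCODE starts given above, so the BCL2L11 window lies wholly inside the GENCODE span of its gene and the BBC3 window overlaps it in part.
BCL2L11: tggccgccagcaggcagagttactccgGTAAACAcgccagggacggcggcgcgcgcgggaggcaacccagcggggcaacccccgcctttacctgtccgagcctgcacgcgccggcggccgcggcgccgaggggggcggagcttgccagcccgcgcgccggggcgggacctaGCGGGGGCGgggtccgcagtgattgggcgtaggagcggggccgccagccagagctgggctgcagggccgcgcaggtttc
BBC3: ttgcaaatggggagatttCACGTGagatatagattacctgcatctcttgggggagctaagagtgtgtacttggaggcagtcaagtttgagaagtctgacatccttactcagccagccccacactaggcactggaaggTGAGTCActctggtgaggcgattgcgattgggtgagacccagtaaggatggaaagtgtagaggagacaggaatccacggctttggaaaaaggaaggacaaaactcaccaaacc
Motifs were searched on both strands as GTAAACA (FOXO), TTCNNNGAA (STAT), TGANTCA (AP-1), CACGTG (E-box), GCGNGGGCG (EGR1) and TGATGNAAN (ATF4 with CHOP), in the 9 members with a window in the RefSeq table, that is all but MCL1. BCL2L11 holds 1 FOXO match, 223 to 217 bases before the start, and 1 EGR1 match, at 79 to 71 bases. BBC3 holds 1 E-box, at 232 to 227 bases, and 1 AP-1 match, at 113 to 107 bases. FOXO matches occur in 2.98% of 27305 such windows, EGR1 in 8.25%, AP-1 in 6.60% and E-boxes in 6.49%. No member window held a STAT (6.78% of all windows) or ATF4 with CHOP match (3.18%). Matches to any of the motifs lay in BCL2L11, BBC3 and BAX only. The window of BCL2, which rose most, held none, nor did those of BCL2L1, BID, BAD, PMAIP1 and BAK1. Levels of E-box factors are not given here. A match describes letters in the window and shows no binding. FOXO3, picked for this motif, fell from 65.4 ± 1.25 to 48.4 ± 0.918 TPM (n = 3, SD; edgeR change -0.57, SE 0.03, adjusted p = 4.95e-12), while EGR1 and the AP-1 subunit JUN rose, as given below.

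The remaining BH3-only members fell in the edgeR fit. BID links death receptors to mitochondria, since caspase-8 cuts it into its active form (chromosome 22, 17734138 to 17774770). It was at 64.9, 69.4 and 73.2 TPM in scramble and 46.5, 49.6 and 47.5 TPM in knockdown. This was the largest called fall of the 10, to 0.629 of the scramble level (log2 fold change -0.67, SE 0.05, adjusted p = 2.21e-10, edgeR), with no overlap between groups.

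PMAIP1 encodes NOXA, which binds MCL1 with preference and promotes its destruction (chromosome 18, 59899948 to 59904306). It was the most abundant BH3-only member, at 189, 215 and 213 TPM in scramble and 203, 187 and 196 TPM in knockdown. The groups overlapped because scramble replicate 1 lay among the knockdown values. The fitted change was small (log2 fold change -0.20, SE 0.04, adjusted p = 0.000408, edgeR). It was -0.43 with a GC trend removed (adjusted p = 5.76e-11) and did not pass on log2(TPM + 1) with limma (-0.07, adjusted p = 0.248) or on log2(FPKM + 1) (-0.12, adjusted p = 0.0648). With 37.2% GC in its longest transcript, PMAIP1 had the lowest GC content of the 10.

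BAD, which survival kinases phosphorylate so that 14-3-3 proteins hold it in the cytosol, lies on chromosome 11 from 64269830 to 64284704. It was at 105, 94.0 and 95.3 TPM in scramble and 83.3, 99.4 and 98.5 TPM in knockdown. Only knockdown replicate 1 lay below all scramble libraries, and without it the edgeR change was -0.16 (adjusted p = 0.0242). Over all 6 libraries the edgeR change was -0.25 (SE 0.07, adjusted p = 0.00319), and it did not pass on log2(TPM + 1) (-0.07, adjusted p = 0.399) or log2(FPKM + 1) (-0.11, adjusted p = 0.16). BAD shares 404 exon bases with GPR137 on the other strand, and GPR137 rose from 26.1 to 26.3 TPM in scramble to 43.7 to 50.8 TPM in knockdown (log2 fold change 0.72, SE 0.06, adjusted p = 2.7e-09, edgeR), so without the counting strand the reads of these neighbours cannot be told apart there.

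The effectors moved in opposite directions. BAX, which resides in the cytosol until it is activated, lies on chromosome 19 from 48954815 to 48961798. It was at 175, 180 and 179 TPM in scramble and 217, 220 and 228 TPM in knockdown. The rise was 1.17-fold (log2 fold change 0.23, SE 0.05, adjusted p = 0.000123, edgeR) with no overlap, and it did not pass a test against a 1.2-fold change (adjusted p = 0.7).

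BAK1, the effector that sits in the outer membrane and is held there by MCL1 and BCL-XL, lies on chromosome 6 from 33572547 to 33580293. It was at 57.8, 59.3 and 58.5 TPM in scramble and 47.7, 44.9 and 50.1 TPM in knockdown. It fell to 0.740 of the scramble level (log2 fold change -0.43, SE 0.05, adjusted p = 7.23e-08, edgeR). BAK1 has the processed pseudogenes BAK1P1 and BAK1P2 and shares 91 exon bases with GGNBP1 on the other strand, so its level is uncertain to the extent that the counting split reads among them. The ratio of BAX to BAK1 was 3.03, 3.04 and 3.07 in scramble and 4.56, 4.89 and 4.55 in knockdown, so BAX went from 75.3% ± 0.121 to 82.3% ± 0.602 of the summed effector TPM (SD, n = 3).

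The windows of the 2 effectors are set side by side because the genes went opposite ways (RefSeq, GRCh38.p14; BAX chr19:48954625-48954874, plus strand, and BAK1 chr6:33580277-33580526, minus strand; capitals mark matches to the motifs above). Both windows run in part into the GENCODE spans of their genes.
BAX: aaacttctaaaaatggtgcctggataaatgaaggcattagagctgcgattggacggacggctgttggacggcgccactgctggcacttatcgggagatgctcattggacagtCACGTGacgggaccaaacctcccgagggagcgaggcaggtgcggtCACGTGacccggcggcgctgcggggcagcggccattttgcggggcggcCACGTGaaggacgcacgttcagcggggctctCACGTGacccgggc
BAK1: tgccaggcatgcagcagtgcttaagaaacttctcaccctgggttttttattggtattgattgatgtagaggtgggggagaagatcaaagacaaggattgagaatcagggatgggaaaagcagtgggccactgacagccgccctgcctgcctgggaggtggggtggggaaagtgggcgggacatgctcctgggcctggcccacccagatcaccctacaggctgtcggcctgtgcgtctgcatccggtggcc
The BAX window holds 4 E-boxes, beginning 138, 93, 45 and 14 bases before the start, a number reached by 5 of the 27305 windows (0.0183%). The BAK1 window holds no match to any of the motifs, which says only that these letters are not in it. The count of E-boxes was looked at after the sequence was seen, and binding at them was not measured.

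**Figure D2:**
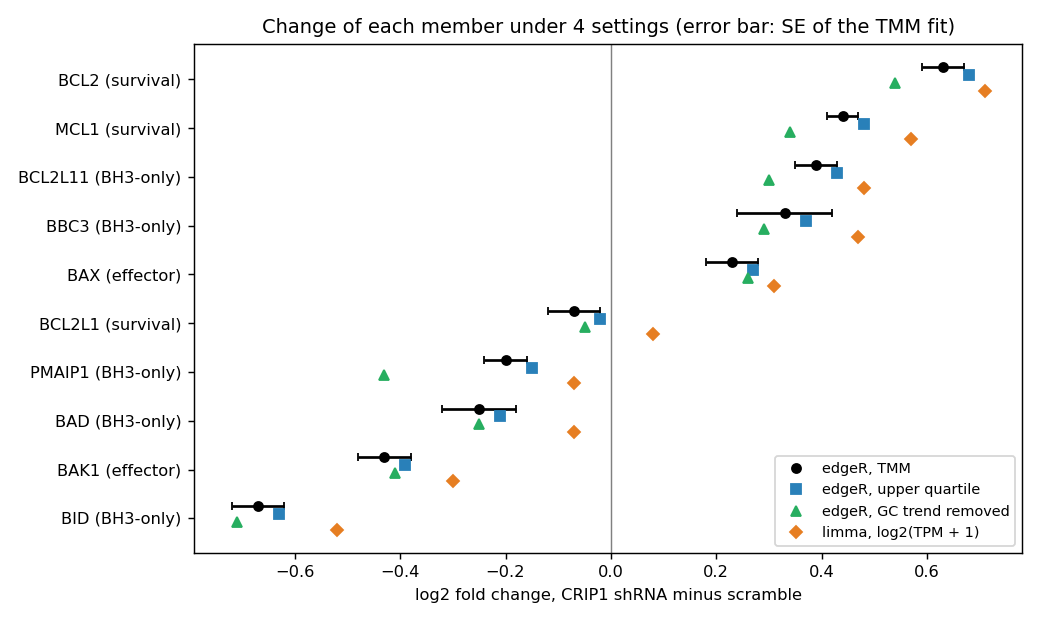
Each row is 1 member, with the log2 fold change (CRIP1 shRNA minus scramble) on the horizontal axis under edgeR with TMM scaling (black, with its SE), edgeR with upper-quartile scaling (blue), edgeR with a GC trend removed (green) and limma on log2(TPM + 1) (orange). BCL2L1 is the member whose sign turned, from -0.07 with edgeR to 0.08 with limma, and PMAIP1 moved farthest with the GC trend removed, to -0.43.

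Compared as classes, the summed level of survival members was higher in every knockdown library, while that of BH3-only members overlapped between groups. Survival members summed to 696.7, 679.6 and 691.9 TPM in scramble and 1036, 974.2 and 1032 TPM in knockdown. BH3-only members summed to 407.7, 426.5 and 429.6 TPM in scramble and to 398.3, 404.3 and 413.3 TPM in knockdown, ranges that overlap. Effectors summed to 232.9, 239.5 and 237.9 against 264.8, 264.9 and 277.9 TPM. These sums are on the TPM scale. There the median change of all genes was 0.12 (log2(TPM + 1)), against 0.01 in the edgeR fit. The part of that shift in the sums was not tested.

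The share of survival members in the TPM of all 10 members was 51.2% ± 0.829 in scramble and 60% ± 0.856 in knockdown (SD, n = 3), a gain of 8.88 percentage points. BH3-only members went from 31.3% ± 0.673 to 24.0% ± 0.579 and effectors from 17.6% ± 0.2 to 15.9% ± 0.309 (SD, n = 3). MCL1 alone accounted for 42.1% ± 0.642 of the summed TPM in scramble and 49.9% ± 0.693 in knockdown, and without it the gain was 4.50 percentage points. The ratio of survival to all other members was 1.09, 1.02 and 1.04 in scramble and 1.56, 1.46 and 1.49 in knockdown. These are shares of RNA; protein, phosphorylation and binding were not measured, and no test was made on a sum over the members.

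**Figure D3:**
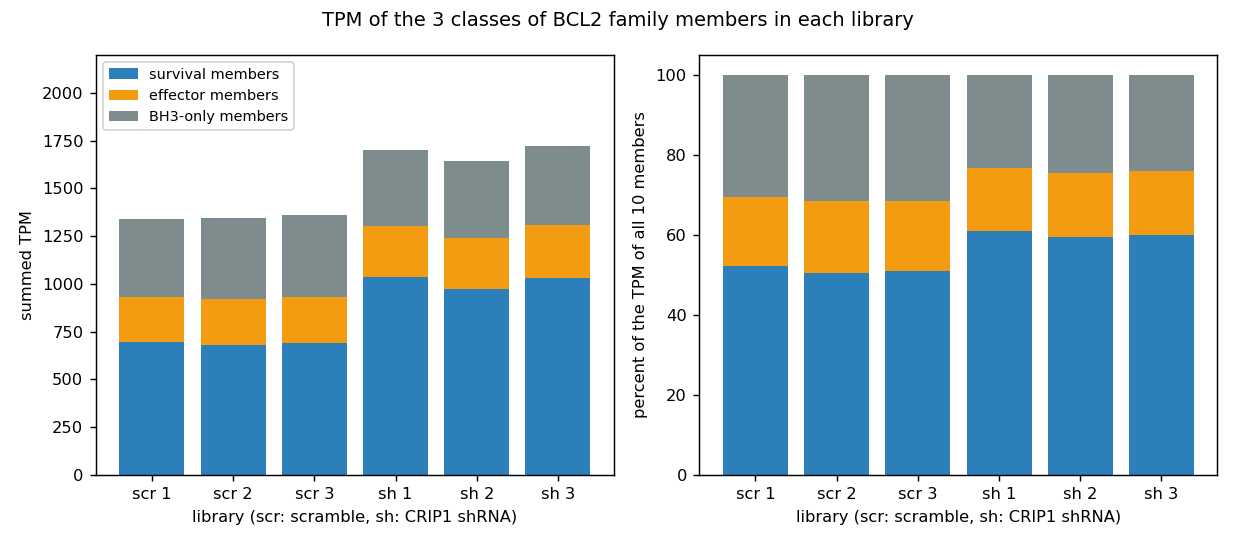
Stacked bars give the TPM of survival (blue), effector (orange) and BH3-only members (grey) in each library, as sums on the left and as percent of the TPM of all 10 members on the right. The blue share is 50.5% to 52.1% in the scramble libraries and 59.3% to 61.0% in the knockdown libraries.

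Pairs of known binding partners did not all shift the same way. BIM to MCL1 (BCL2L11 to MCL1) was nearly level, at 0.0576, 0.0586 and 0.0579 in scramble and 0.0537, 0.0559 and 0.0549 in knockdown, although the ranges did not overlap. BIM to BCL2 went down, from 0.474 ± 0.0199 to 0.404 ± 0.00777, and BIM to BCL2L1 went up, from 0.616 ± 0.00748 to 0.819 ± 0.0429 (SD, n = 3). NOXA to MCL1 (PMAIP1 to MCL1) was 0.329, 0.384 and 0.376 in scramble and 0.236, 0.232 and 0.228 in knockdown, without overlap. PUMA to MCL1 (BBC3 to MCL1) overlapped, at 0.0275 ± 0.00133 and 0.0261 ± 0.00277, and so did BAD to BCL2L1, at 1.84 ± 0.0856 and 1.67 ± 0.230. BID to BAX fell from 0.388 ± 0.0188 to 0.216 ± 0.00855 (SD, n = 3). Of the 11 ratios computed, which include pairs within a class, 9 did not overlap between groups. In TPM, 78.5% of single genes tested did not overlap, and no such share was computed for ratios of other genes. With 3 libraries a group, an exact permutation test of a ratio cannot go below p = 0.1.

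**Figure D4:**
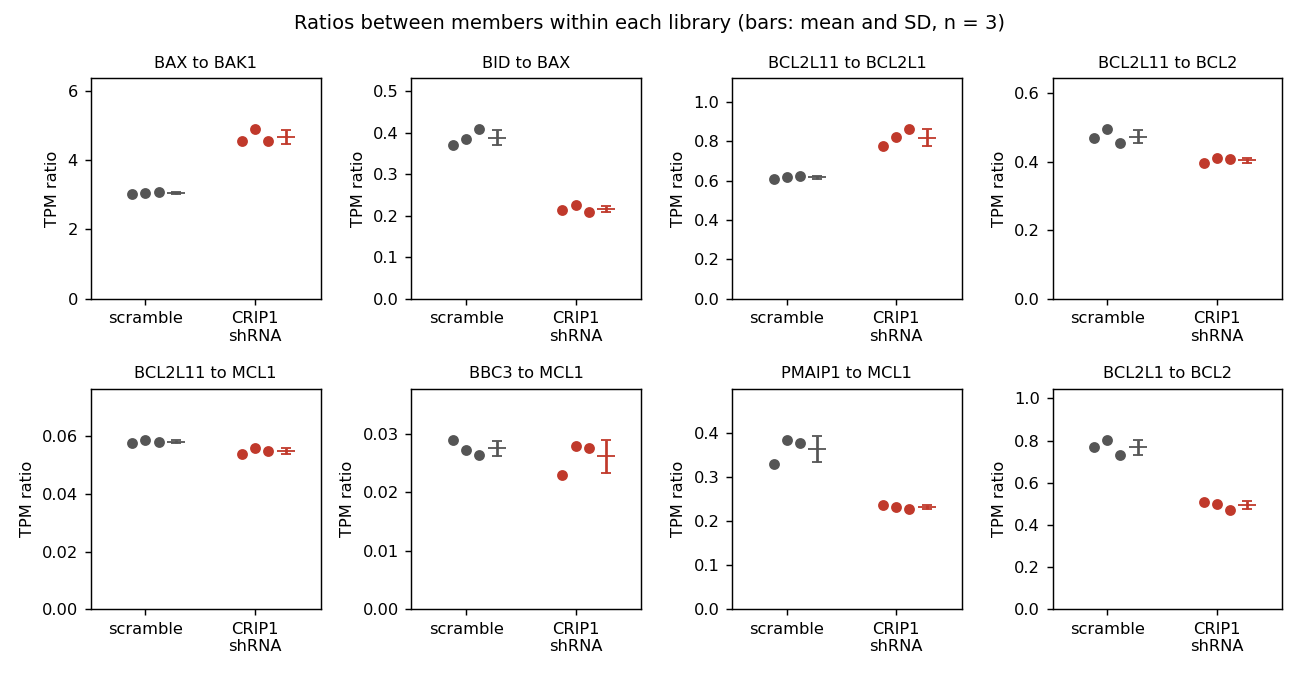
Each panel gives the TPM ratio of 2 members within a library, with a point for each library and a bar for the mean and SD of 3 libraries (grey scramble, red CRIP1 shRNA). BAX to BAK1 and BCL2L11 to BCL2L1 are higher in the knockdown, PMAIP1 to MCL1, BID to BAX and BCL2L1 to BCL2 are lower, and BCL2L11 to BCL2 and to MCL1 lie slightly lower, and BBC3 to MCL1 overlaps.

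Log2 CPM (counts scaled to library totals adjusted by TMM) was compared over the 6 libraries, among 145 tested genes of the lists below and the marker lists. The genes most like BCL2 were USP9X (Pearson's r = 0.9979), YWHAZ (0.9974) and STAT5B (0.9969). Those most like BID were SDC1 (0.9967), VDAC1 (0.9937) and PDGFRB (0.9919). These values describe 6 points in 2 groups and are set largely by the difference between the groups.

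Of the 13 other BCL2 family genes, 9 passed the filter, of which 4 rose, 1 fell and 4 did not pass the test. The share called was 55.6%, against 77.6% of all genes tested. BNIP3L encodes NIX, a mitophagy receptor also used by red cell precursors, and rose from 38.4 ± 2.29 to 67.0 ± 0.807 TPM (n = 3, SD; change 0.67, SE 0.04). The erythroid markers moved with it (summed level 772 to 778 against 4.75 to 5.95 TPM, HBG2 at 185.2 against 0), and their part in it was not tested. The BH3-only gene BMF rose from 57.3 ± 1.01 to 72.2 ± 1.91 TPM (0.21, SE 0.04), which did not pass against a 1.2-fold change (adjusted p = 0.948). The survival genes BCL2L2 (3.39 to 5.51 TPM; 0.56, SE 0.10) and BCL2L10 (0.513 to 2.1 TPM; 1.96, SE 0.38) rose from low levels. On log2(TPM + 1), BCL2L10 was 1.02 and BMF 0.33. BIK, a BH3-only protein of the endoplasmic reticulum, fell from 9.20 ± 0.727 to 5.70 ± 1.41 TPM (n = 3, SD; -0.82, SE 0.19). HRK (0.527 and 0.593 TPM in scramble and knockdown), BNIP3 (7.60 and 9.58 TPM), BCL2L12 (74.2 and 86.5 TPM) and BCL2L13 (36.5 and 41.3 TPM) did not pass (adjusted p = 0.93, 0.142, 0.77 and 0.78, edgeR), although BNIP3, BCL2L12 and BCL2L13 passed as higher on log2(TPM + 1) (adjusted p = 0.0105, 0.00594 and 0.00466, limma). BOK, an effector-like gene, had 1 count in scramble and 30 in knockdown, a ratio of 29.1 (95% counting interval 4.84 to 1190, exact binomial). BCL2A1 had 1 and 3 counts, BCL2L15 12 and 27, and BCL2L14 none in either group, which allows at most 3 counts a group. These intervals cover counting error only.

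Downstream of the membrane, released cytochrome c assembles APAF1 and caspase-9 into the apoptosome. Of 17 genes of the apoptosome, of other released factors, caspases and inhibitors, 8 rose, 6 fell and 3 did not pass (median 0.13, all genes 0.01). Called genes made up 82.4%, against 77.6% of all genes tested. The caspase inhibitor XIAP rose from 13.6 ± 1.15 to 23.7 ± 1.35 TPM (n = 3, SD; 0.67, SE 0.05), as did BIRC2, the ligase cIAP1 (0.45, SE 0.05). CASP2 fell (-0.39, SE 0.05). BIRC2 was 0.23 with the GC trend removed, and CASP2 was -0.25 on log2(TPM + 1).

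Of 14 genes in a list named outer membrane partners, 3 rose, 10 fell and 1 did not pass (median -0.26). This is 92.9% called, against 77.6% of all genes tested, where 39.4% were higher and 38.1% lower. The list is broader than its name. TMBIM6, BCAP31, ITPR1, ITPR2 and ITPR3 belong to the endoplasmic reticulum and OPA1 to the inner membrane. MTCH2, the membrane receptor for truncated BID, fell from 77.2 ± 0.608 to 48.9 ± 0.943 TPM (-0.78, SE 0.04), beside BID itself, and the channel VDAC1 fell from 449.1 ± 12 to 328.2 ± 8.27 TPM (n = 3, SD; -0.59, SE 0.04). TMBIM6, known as BAX inhibitor 1, a calcium regulator of the endoplasmic reticulum, rose from 581.6 ± 18.3 to 1137 ± 20.7 TPM (0.82, SE 0.03). The calcium channel ITPR1 rose (1.03, SE 0.05), while the related ITPR2 (-0.87, SE 0.06) and ITPR3 (-0.36, SE 0.05) fell.

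MCL1 protein is turned over by ubiquitin ligases and spared by deubiquitinases. Of 14 genes tested in this list, 4 rose, 6 fell and 4 did not pass (median -0.04, 71.4% called against 77.6% of all genes). The ligase HUWE1 fell from 71.6 ± 3.16 to 55.1 ± 1.75 TPM (-0.52, SE 0.04), and the deubiquitinase USP13 fell from 24.4 ± 0.265 to 13.9 ± 0.380 TPM (-0.89, SE 0.05; SD, n = 3). The deubiquitinases JOSD1 (0.46, SE 0.04) and USP9X (0.35, SE 0.03) rose, as did MARCHF5, a ligase of the outer membrane (0.51, SE 0.05). With the GC trend removed, USP9X was 0.17 and MARCHF5 0.30. Genes on both sides of MCL1 turnover thus moved each way.

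Of 13 tested genes for transcription factors known to act on BH3-only genes, 8 rose, 3 fell and 2 did not pass. That is 84.6% called, against 77.6% of all genes tested. The median was 0.61 and stayed 0.61 with TP73 set to its bound. DDIT3 encodes CHOP, the stress factor that induces BCL2L11, and stood at 197.9 ± 2.70 TPM in scramble and 742.0 ± 25.0 TPM in knockdown (1.72, SE 0.04). The pseudokinase TRIB3, placed in this list as a CHOP partner, rose from 85.5 ± 2.89 to 301.5 ± 24.3 TPM (1.68, SE 0.05), JUN from 29.7 ± 0.854 to 79.5 ± 5.79 TPM (1.28, SE 0.05) and EGR1 from 0.233 ± 0.107 to 17.0 ± 0.641 TPM (SD, n = 3), a log2 fold change of 6.02 (SE 0.16), or 3.87 on log2(TPM + 1). TP73 had 0 counts in scramble and 69 in knockdown, at least 22.3-fold higher when scramble is set to 3 counts for its group. The 3 that fell were E2F1, FOXO1 (-0.40, SE 0.06) and FOXO3, given above. E2F1 went from 253.0 ± 3.58 to 167.8 ± 9.69 TPM (SD, n = 3), a log2 fold change of -0.73 (SE 0.04).

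Of 12 factors known to act on survival genes, 6 rose, 3 fell and 3 did not pass (median 0.09, 75.0% called against 77.6% of all genes). STAT3, which drives MCL1 downstream of IL-6, fell from 59.2 ± 0.849 to 47.3 ± 0.577 TPM (n = 3, SD; -0.47, SE 0.04), and PRDM1 fell (-0.95, SE 0.04). HIF1A rose (0.62, SE 0.04, and 0.37 with the GC trend removed), STAT5B rose (0.27, SE 0.04; adjusted p = 0.305 against a 1.2-fold change), and STAT5A had 2 counts in scramble and 1754 in knockdown, a ratio of 850 (95% counting interval 235 to 7030).

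Of 24 tested genes for the kinases and anchors of BAD and BIM, 11 rose, 9 fell and 4 did not pass (median 0.06). The called share was 83.3%, against 77.6% of all genes tested. PIM2, a kinase of plasma cells that phosphorylates BAD, fell from 1148 ± 29.2 to 610.0 ± 8.70 TPM (-1.05, SE 0.03), PIM1 fell (-0.49, SE 0.04), and so did RPS6KA1 (-1.35, SE 0.07) and RPS6KA3 (-0.80, SE 0.04). The 6 measured YWHA genes for 14-3-3 proteins, which hold phosphorylated BAD, all rose, by 0.24 to 0.43 on the log2 scale, and by as little as 0.11 with the GC trend removed, where YWHAZ went from 0.32 to 0.14, YWHAB from 0.30 to 0.16 and YWHAQ from 0.24 to 0.11. All 6 stayed above 0 under the 16 alternatives run, although YWHAB and YWHAQ did not pass against a 1.2-fold change (adjusted p = 0.0732 and 0.659). DYNLL2, the dynein light chain that anchors BMF, rose from 20.3 ± 0.327 to 51.2 ± 1.71 TPM (n = 3, SD; 1.2, SE 0.04).

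**Figure D5:**
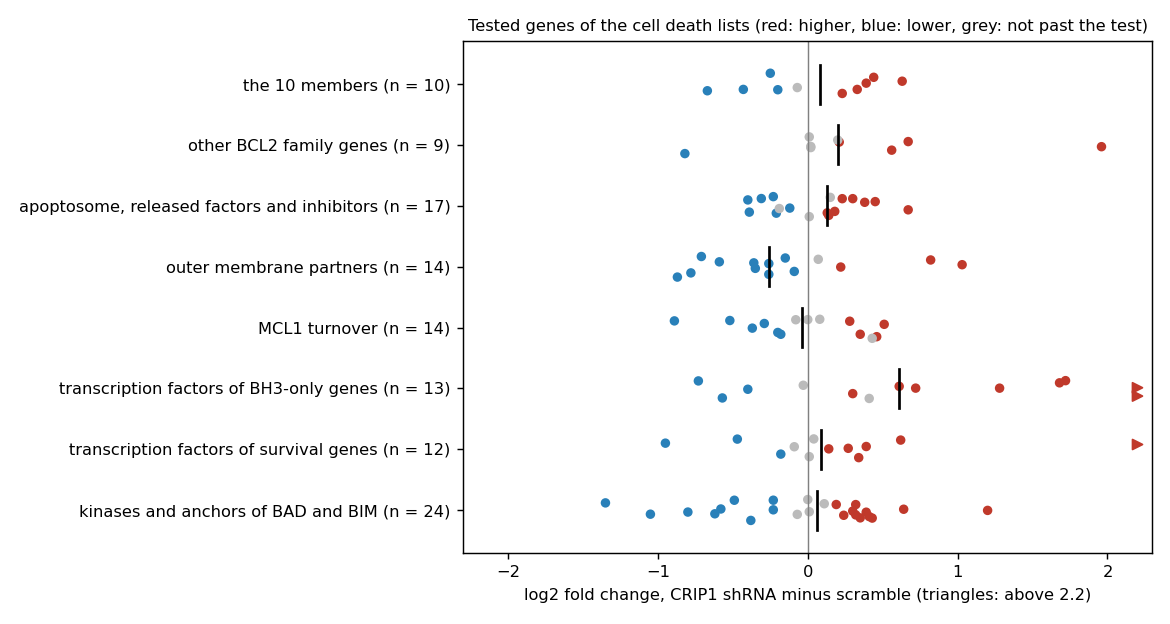
Each point is a tested gene, with its log2 fold change (CRIP1 shRNA minus scramble) on the horizontal axis and its list on the vertical; red is higher, blue lower and grey not past the edgeR test, the black line is the list's median, and triangles stand for values above 2.2, which for TP73 (0 scramble counts) is no measured fold. The 10 members spread from -0.67 to 0.63. The median of the list named outer membrane partners, which also holds genes of the endoplasmic reticulum, lies at -0.26.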

How the data were processed

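The authors deposited, per the file headers, FPKM, TPM and estimated counts by gene in all 6 libraries. The deposited estimated counts (expected counts) need not be whole and were rounded here for edgeR. FPKM as deposited is per gene length and library total, and TPM as deposited is in addition scaled to 1 sum in each library. Per the submitters' processing notes, HISAT2 2.1.0, Bowtie2 2.2.5, RSEM 1.2.8 and GRCh38.p13 were named without roles; annotation and strand setting are not given in the sources used here.

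Groups and replicate numbers came from the titles. Genes were filtered with filterByExpr (minimum count 10), scaled by TMM and fitted on group with edgeR 4.0.16 (R 4.3.3), with Benjamini-Hochberg adjustment over 12612 genes and a threshold of 0.05. Changes are knockdown minus scramble, and the SE is the log2 fold change over the square root of F. Alternatives used limma 3.58.1 on log2(value + 1), DESeq2 1.42.0, other scalings and filters, a GC loess offset (span 0.5), a test against a 1.2-fold change, a replicate block and each library left out. The fit was tested on simulated data. Replicates differed beyond counting noise (mean chi-square per gene 1.62 to 4.15, against 99.3 to 104 between groups). Named genes were all members, all other BCL2 family genes, CRIP1, for each list the 4 of smallest adjusted p and the called gene of largest fold, and the genes most like BCL2 and BID. FOXO3, FOXO1, E2F1, PIM1, ITPR2, ITPR3, the YWHA genes and GPR137 were added after their values were seen. Some genes and 1 gene list are not reported here. Members and lists were chosen with earlier results of these data known. Positions are from GENCODE 29 and promoter windows from RefSeq.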

Additional observations from a re-analysis of the deposited data

How the results depend on the processing

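BCL2, MCL1, BCL2L11, BID and BAK1 kept their direction and passed the test under all 16 alternatives, with ranges of 0.54 to 0.71, 0.34 to 0.57, 0.30 to 0.48, -0.71 to -0.52 and -0.47 to -0.30. Leaving out any 1 library left 5 members higher and 4 lower. The test against a 1.2-fold change left 3 members higher and 2 lower, with BBC3 (adjusted p = 0.158), BAX (0.7), BAD (0.475) and PMAIP1 (0.956) no longer past it, and limma on log2(FPKM + 1) and on log2(TPM + 1) each left 2 lower. BCL2L1 turned to 0.04 and 0.08 on those 2 scales. Among other family genes that passed in no edgeR fit, HRK turned to -0.01 and BCL2L13 to -0.05 with the GC trend removed, and with a library left out HRK ranged from -0.14 to 0.23 (-0.04 and -0.11 without CRIP1 shRNA replicate 1 and scramble replicate 2), BCL2L12 from -0.04 to 0.06 (-0.00365 without CRIP1 shRNA replicate 2) and BCL2L13 from -0.01 to 0.03. Against a 1.2-fold change, the apoptosome list had 3 higher and 2 lower, outer membrane partners 6 lower, MCL1 turnover 3 lower, survival factors 3 higher, and kinases and anchors 7 higher, since that test asks for more. On log2(TPM + 1), 7 other family genes were higher and 3 apoptosome genes lower, and with the GC trend removed 4 apoptosome genes were higher; the cause was not tested. The balance of all called genes moved from 50.8% higher to 61.4% on log2(TPM + 1) (median 0.12) and 43.0% with the GC trend removed (median -0.08). The gain in the survival share, 8.88 percentage points, was 6.91 in CPM by plain library totals and 4.50 without MCL1. It was 7.53 without PMAIP1 and 8.42 to 9.35 with a library left out. The replicate numbers pair no samples by the labels, and same-numbered libraries correlated at 0.046, -0.009 and -0.013 in their deviations from the group means; with a replicate block 9816 genes were called in place of 9783, and the member counts stayed at 5 higher and 4 lower. With 203 to 229 estimated counts a library in scramble, BBC3 had the lowest depth of the members.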
